A study of Mus musculus with 21 samples.

Results

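A group of genes known from macrophages that remodel tissue, and shared in large part with bone-resorbing osteoclasts, was followed across every library of a muscle RNA-seq study: Spp1, Ctsk, Mmp12, Mmp9, Gpnmb, Itgax, Trem2, Atp6v0d2 and Acp5. They are 9 of the 46071 genes in the count table and were found there by their Ensembl identifiers. They were chosen by their CPM levels over the 4 groups of these same libraries, so their values and fold changes are given as a description. No p-value of any of the 9 is printed, and counts of how many passed a threshold stand only beside the same share over all genes.

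Muscle-specific triple knockout (TKO) mice, which lack FoxO1, FoxO3 and FoxO4 in skeletal muscle, were compared with their floxed littermates, in diabetic and non-diabetic states; the diabetes was caused by streptozotocin (STZ), which kills the beta cells that make insulin. All 4 groups carry the floxed alleles on a mixed C57Blk6, C57Blk6J and 129 background, and the knockouts add ACTA1-Cre, a recombinase driven by the skeletal actin promoter of muscle fibres. The groups held 4 floxed libraries (1, 5, 9 and 19), 6 TKO libraries (2, 6, 10, 13, 16 and 20), 5 STZ floxed libraries (3, 7, 14, 17 and 21) and 6 STZ TKO libraries (4, 8, 11, 12, 15 and 18), named here by the number in their titles. STZ was injected at 150 mg/kg after a fast, females received 75 mg/kg more on day 3, and animals were kept when random glucose stayed above 300 mg/dL over the 9 to 12 days that followed. The libraries without STZ are labelled as having had no drug, and the design text names injection of citrate buffer as the control treatment. RNA came from quadriceps and gastrocnemius combined, and the labels give no age and no sex. Every library held 0 to 2 counts of Xist, the RNA of the inactive X chromosome, and 150 to 1398 counts of the Y-linked Ddx3y. All 21 thus read as male. No label states that each library is a separate animal. The p-values below therefore measure the spread between libraries.

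Resident and recruited macrophages clear damaged fibres and shape the matrix of injured muscle. When they take up much lipid or debris, macrophages are known to switch on a shared set of secreted, lysosomal and surface proteins, of which the 9 genes are well-known members. Spp1 encodes osteopontin, a secreted matrix protein and integrin ligand; Mmp12 and Mmp9 encode matrix metalloproteinases, the macrophage elastase and gelatinase B; Ctsk encodes cathepsin K, a collagen-cutting lysosomal protease; and Acp5 encodes tartrate-resistant acid phosphatase. Atp6v0d2 encodes a subunit of the vacuolar proton pump with narrow expression, Gpnmb a membrane glycoprotein of lysosome-rich cells, Itgax the integrin CD11c, and Trem2 a lipid-sensing receptor that signals through the adaptor DAP12.

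All 9 are protein-coding genes, placed here on GRCm38 by the GENCODE annotation. The proteases and the secreted ligand lie apart, with Spp1 (ENSMUSG00000029304) at chr5:104435118-104441050, Ctsk (ENSMUSG00000028111) at chr3:95499256-95509362, Mmp12 (ENSMUSG00000049723) at chr9:7344381-7369499 and Mmp9 (ENSMUSG00000017737) at chr2:164940780-164955850, each on the plus strand. The surface proteins are Gpnmb (ENSMUSG00000029816) at chr6:49036546-49070929, Itgax (ENSMUSG00000030789) at chr7:128129547-128150657 and Trem2 (ENSMUSG00000023992) at chr17:48346401-48354147, also on the plus strand. The lysosomal and pump genes are Atp6v0d2 (ENSMUSG00000028238) at chr4:19876841-19922605 and Acp5 (ENSMUSG00000001348) at chr9:22126727-22135711, both on the minus strand. The counts cover the exons of each gene and do not separate its transcripts.

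Library depth lay between 2951290 and 7687823 counts (median 5665819). Levels are given as CPM, each count scaled to a common library size after TMM adjustment. Foxo1 lay between 36.3 and 112 CPM in the 9 floxed and STZ floxed libraries and between 6.99 and 26.6 CPM in the 12 knockouts, and Foxo4 between 124 and 201 CPM against 3.87 to 12.6 CPM. Foxo3 was counted over its whole length at 63.9 to 114 CPM in the floxed libraries and 73.4 to 232 CPM in the knockouts, and such a count does not show whether a deleted exon is missing. Several libraries stood apart for the genes described here. Knockout libraries 4, 15 and 16 were among the 4 highest of the 21 for 9 of the 9 genes, library 18 for 7 and library 20 for 2. Libraries 4, 15, 16 and 20 were also the 4 with the highest summed level of macrophage markers, and the values without some or all of them are given beside the fold changes below.

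Spp1, Mmp12, Gpnmb, Itgax, Trem2 and Atp6v0d2 were low in floxed muscle, with or without STZ, and higher but very uneven in the knockouts. Ctsk, Mmp9 and Acp5 were high mainly in STZ TKO muscle and in TKO library 16, and the TKO medians of Mmp9 and Acp5, 2.45 and 3.63 CPM, were below their floxed medians of 2.63 and 4.22 CPM. Mmp12, Itgax and Trem2 were higher in each of the 12 knockout libraries than in any of the 9 floxed or STZ floxed libraries, and Atp6v0d2 was so in 11 of 12. Spp1 did so in 10 of 12, Gpnmb in 8, Ctsk and Acp5 in 7, and Mmp9 in 5. Of all 12658 genes tested, 0.15% had every knockout library above every floxed one. Mmp12, Itgax, Trem2 and Atp6v0d2 passed the filter on low counts only through the knockout libraries. The share is therefore given for scale and is no test of these genes. In bulk muscle, more cells of a type and more RNA per cell cannot be told apart.

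**Figure D1:**
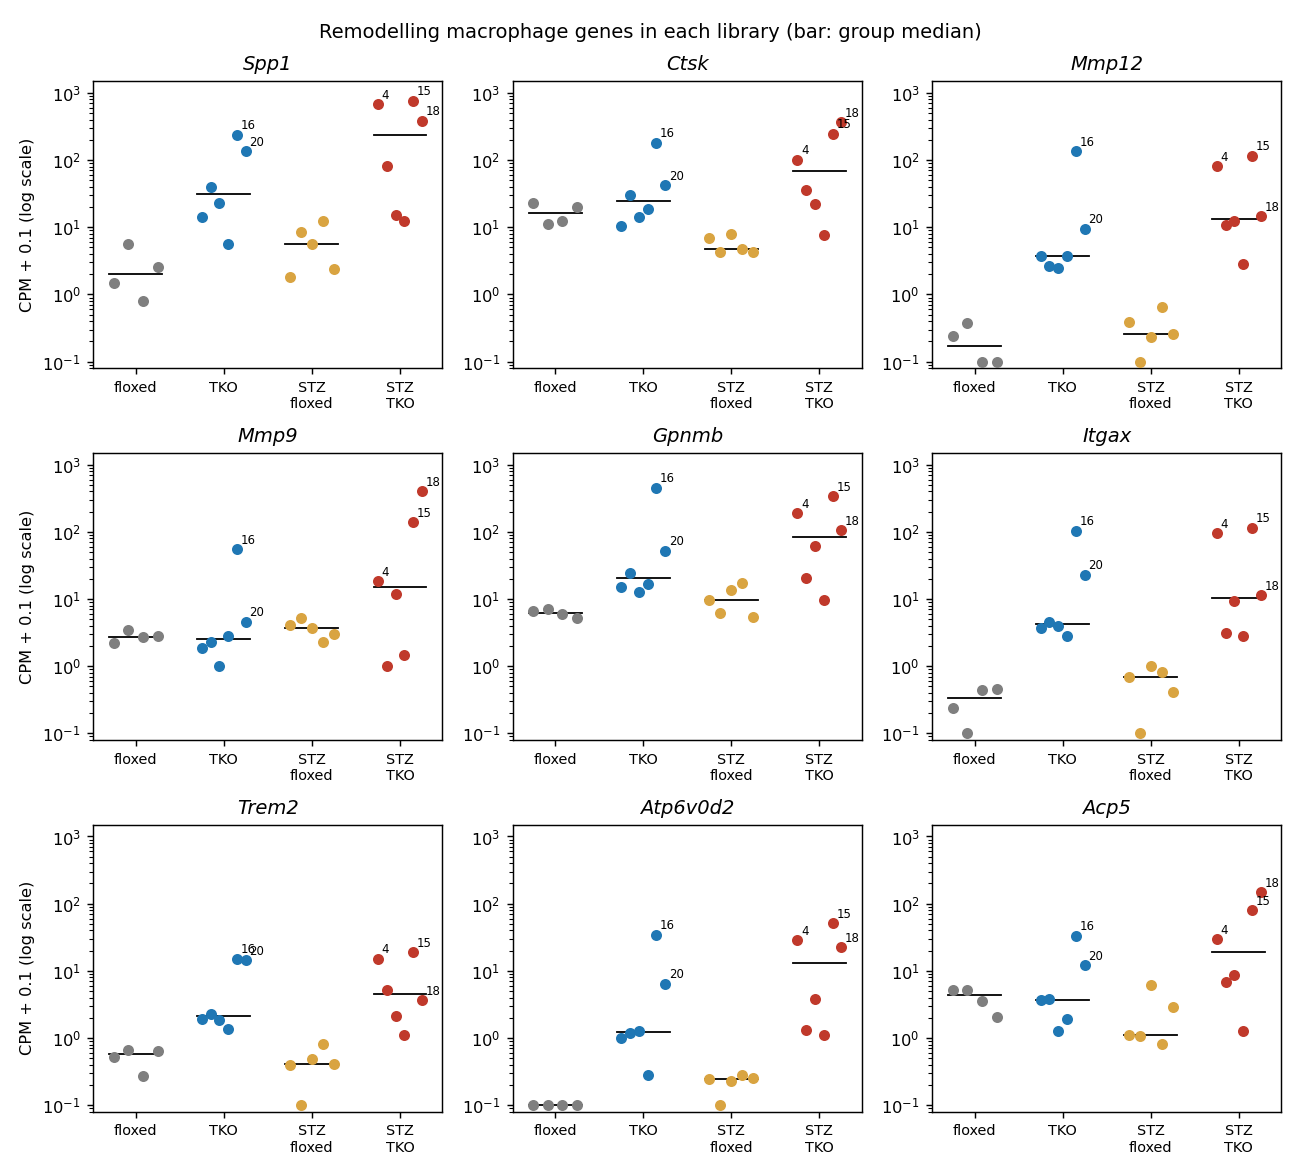
CPM + 0.1 on a log axis for the 9 genes, 1 point per library in the floxed, TKO, STZ floxed and STZ TKO groups, with a bar at each group median and the numbers of 5 knockout libraries. Mmp12, Itgax and Trem2 sit above all floxed points in each of the 12 knockouts, whereas Mmp9 does so in 5.

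Spp1, the gene of osteopontin, measured 1.39, 5.56, 0.69 and 2.50 CPM in the floxed libraries 1, 5, 9 and 19. In the 6 TKO libraries its lowest value was 5.58, its median 31.1 and its highest 239 CPM, the highest being library 16. The TKO group lay wholly above the floxed group, although its lowest library, 13, was level with the highest floxed library. STZ floxed libraries 3, 7, 14, 17 and 21 gave 1.75, 8.40, 5.45, 12.2 and 2.31 CPM. The 6 STZ TKO libraries ran from 12.1 through a median of 233 to 767 CPM, with library 15 highest and library 4 next at 679 CPM. STZ TKO and STZ floxed touched only at about 12 CPM, between STZ TKO library 12 and STZ floxed library 17. The log2 fold change of TKO over floxed was 5.03 ± 1.22 (SE; 6 against 4 libraries), and that of STZ TKO over STZ floxed was 5.79 ± 1.00 (6 against 5). Without libraries 4, 15, 16 and 20 the same fold changes were 3.13 and 4.40 on the log2 scale.

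Both metalloproteinases differed from each other in where they were high. Mmp12 was nearly silent in floxed muscle, at 0.14, 0.28, 0 and 0 CPM, which is 2 counts over the 4 libraries together. The 6 TKO libraries ran from 2.38 through a median of 3.60 to 135 CPM, and 5 of them lay at or below 9.40 CPM, so that library 16 held most of the signal. Pooled over libraries, Mmp12 was 383-fold higher in TKO than in floxed muscle, with a 95% interval of 106 to 3160 that covers counting error only. Without library 16 the ratio was 56.8 (15.4 to 475), and without libraries 16 and 20 it was 34.8 (9.13 to 296). Even the lowest TKO library was thus well above the highest floxed one. Under STZ the floxed libraries held 0.29, 0, 0.13, 0.54 and 0.15 CPM, and the STZ TKO libraries ran from 2.73 through a median of 13.3 to 115 CPM. The pooled ratio under STZ was 180 (87.1 to 448), and 42.3 (20.2 to 107) without libraries 4 and 15.

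Mmp9, by contrast, had a steady base level in floxed muscle, at 2.08, 3.34, 2.58 and 2.68 CPM. The TKO libraries ran from 0.892 through a median of 2.45 to 55.4 CPM, and library 16 was far above the rest, with library 20 next at 4.48 CPM. The log2 fold change without STZ, 2.17 ± 1.37 (SE), was -0.02 without library 16. STZ floxed libraries gave 4.08, 5.17, 3.63, 2.18 and 2.92 CPM, and STZ TKO libraries ran from 0.908 through a median of 15.1 to 404 CPM. Library 18 gave the highest value and library 15 the next, 138 CPM, while libraries 8 and 12 were below every STZ floxed library. The log2 fold change under STZ was 4.76 ± 1.18 (SE), and 3.28 without library 18.

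Ctsk and Acp5, the cathepsin and the acid phosphatase by which osteoclasts are usually stained, followed the Mmp9 pattern. Ctsk measured 23.2, 11.1, 12.4 and 19.8 CPM in floxed muscle and 6.85, 4.20, 7.78, 4.71 and 4.15 CPM in STZ floxed muscle. The 5 STZ floxed libraries were all below the 4 floxed ones, with a log2 fold change of -1.57 ± 0.91 (SE), and 5.17% of all genes showed groups separated this way. TKO libraries ran from 10.5 through a median of 24.6 to 180 CPM, overlapping the floxed range, and STZ TKO libraries from 7.50 through 68.9 to 363 CPM. Ctsk was 4.52 ± 0.82 (SE) higher on the log2 scale in STZ TKO than in STZ floxed muscle, with 1 STZ TKO library, 12, inside the STZ floxed range. The value was 3.88 without library 18 and 4.25 without libraries 4, 15, 16 and 20. Without STZ the value was 1.57 ± 0.83 (SE), and 0.48 without library 16.

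Acp5 measured 5.14, 5.00, 3.44 and 1.96 CPM in floxed muscle, and 1.02, 0.97, 6.09, 0.73 and 2.77 CPM in STZ floxed muscle. TKO libraries ran from 1.19 through a median of 3.63 to 33.4 CPM, and STZ TKO libraries from 1.19 through 19.1 to 149 CPM. Both pairs of groups overlapped, and library 18 was again the highest of the 21. The log2 fold change was 1.34 ± 1.04 (SE) without STZ, where it was 0.30 without library 16, and 4.21 ± 0.98 (SE) under STZ. The latter was 3.36 without library 18 and 4.06 without libraries 4, 15, 16 and 20.

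Atp6v0d2, the pump subunit of osteoclasts and certain macrophages, had 0 counts in each of the 4 floxed libraries. TKO libraries ran from 0.180 through a median of 1.15 to 34.2 CPM. Against a floor of 3 counts over the floxed group, 0.135 CPM, the pooled TKO level of 9.68 CPM was at least 71.7-fold higher, at least 18.6-fold higher without library 16 and at least 5.44-fold higher without libraries 16 and 20. STZ floxed libraries held 0.15, 0, 0.13, 0.18 and 0.15 CPM, which is 4 counts in all. STZ TKO libraries ran from 1.02 through a median of 13.1 to 51.1 CPM, and the pooled ratio under STZ was 146 (56.8 to 538), or 93.6 (36.2 to 345) without library 15 and 59.7 (22.9 to 222) without libraries 4 and 15. Every STZ TKO library was above every STZ floxed one.

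Among the surface proteins, Gpnmb had the steadiest base level, at 6.53, 6.95, 5.84 and 5.18 CPM in floxed muscle. TKO libraries ran from 12.5 through a median of 20.3 to 454 CPM, all above the floxed group. STZ floxed libraries gave 9.47, 6.14, 13.4, 17.4 and 5.23 CPM, and STZ TKO libraries ran from 9.55 through 83.1 to 336 CPM, with library 12 inside the STZ floxed range. The log2 fold changes were 3.98 ± 0.99 (SE) without STZ and 3.53 ± 0.89 (SE) under STZ. They were 1.51 and 2.24 without libraries 4, 15, 16 and 20.

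Itgax, the CD11c integrin, held 0.14, 0, 0.34 and 0.36 CPM in floxed muscle and 0.58, 0, 0.91, 0.73 and 0.31 CPM in STZ floxed muscle. TKO libraries ran from 2.70 through a median of 4.14 to 104 CPM, and STZ TKO libraries from 2.73 through 10.2 to 115 CPM. The lowest knockout library was above the highest floxed one, 2.70 against 0.91 CPM. The pooled ratio was 138 (59.0 to 426) without STZ, 42.8 (18.1 to 133) without library 16 and 15.4 (6.20 to 49.5) without libraries 16 and 20. It was 75.3 (46.8 to 130) under STZ and 12.3 (7.44 to 21.7) without libraries 4 and 15.

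Trem2 was the least abundant in total, with 0.42, 0.56, 0.17 and 0.54 CPM in floxed muscle and 0.29, 0, 0.39, 0.73 and 0.31 CPM in STZ floxed muscle. TKO libraries ran from 1.26 through a median of 2.00 to 15.0 CPM, and STZ TKO libraries from 1.02 through 4.35 to 18.9 CPM. The knockouts did not overlap the floxed libraries, and libraries 16 and 20 gave nearly the same value, 15.0 and 14.2 CPM. The log2 fold changes were 3.89 ± 1.11 (SE) and 4.30 ± 1.02 (SE), and they were 2.04 and 2.88 without libraries 4, 15, 16 and 20.

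**Figure D2:**
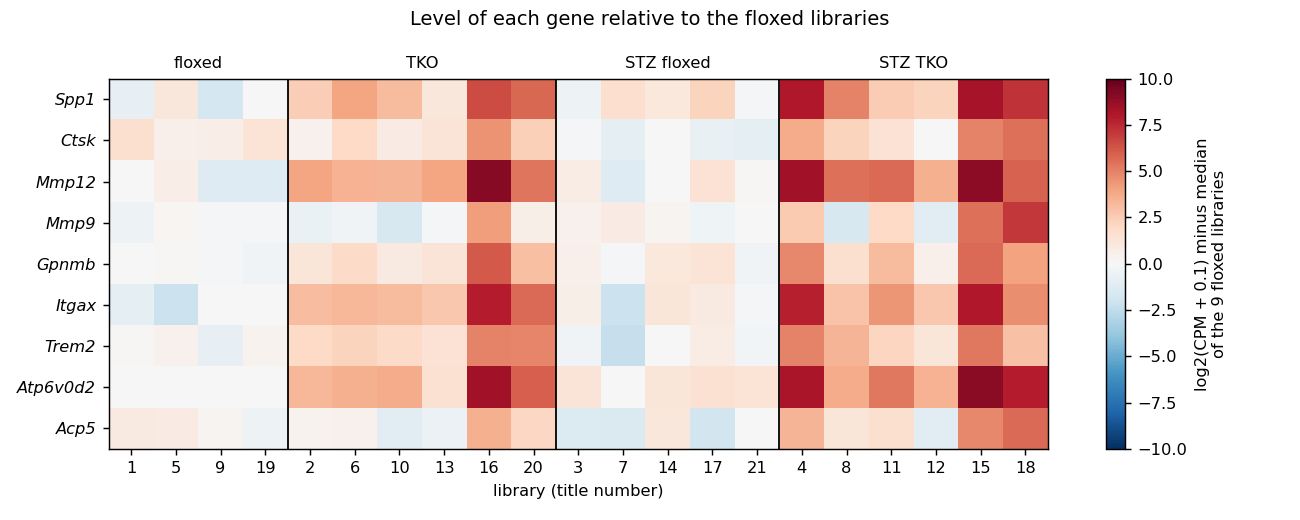
Difference in log2(CPM + 0.1) of each gene from its median over the 9 floxed and STZ floxed libraries, for 9 genes (rows) and 21 libraries (columns, by title number within groups), with red above and blue below that median. Libraries 4, 15, 16 and 18 are dark for most rows, and library 18 is darkest for Mmp9, Ctsk and Acp5 in their rows.

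Across all genes, edgeR's quasi-likelihood test with Benjamini-Hochberg adjustment over 12658 genes at 0.05 called 9 of the 9 genes higher in STZ TKO than in STZ floxed muscle, a direction in which it called 2.47% of all genes. Without STZ the same test called 0 of 9, against 0.15% of all genes called higher. In that comparison 6 of 9 had an unadjusted p under 0.05, against 11.5% of all genes, and DESeq2 called 6 higher (Spp1, Mmp12, Gpnmb, Itgax, Trem2 and Atp6v0d2), against 1.45% of the genes it tested. These 6 were also the ones with no overlap between TKO and floxed libraries, a separation seen in 2.35% of all genes. Under STZ, 4 of 9 had no overlap (Mmp12, Itgax, Trem2 and Atp6v0d2), against 1.51% of all genes. The median log2 fold change of the 9 was 4.76 under STZ, where the median of all genes was 0.03. Without STZ it was 3.98, with Atp6v0d2 set at its bound, and the median of all genes was 0.00414. As these values chose the genes, nothing further is read from the counts. All 9 passed the filter on low counts, and 4 of them, Mmp12, Itgax, Trem2 and Atp6v0d2, passed only through the knockout libraries.

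The calls under STZ depended on single libraries for part of the set. Mmp9, Gpnmb and Acp5 were lost without any 1 of STZ floxed libraries 3, 7, 17 and 21, Mmp9 and Gpnmb without STZ floxed library 14 or STZ TKO library 15, Gpnmb without library 4 and Mmp9 without library 18. Without libraries 4, 15, 16 and 20, 8 genes were tested and 8 were called under STZ, and Itgax and Mmp12 were then called without STZ as well. With the 6 runs of consecutive library codes as a block, 9 of 9 were called under STZ. The log2 fold changes without STZ of Mmp9 and Acp5, however, turned to -0.30 and -0.21 with that block. Not every run held all groups, and the run of TKO library 16, with libraries 17 and 18, held no floxed library without STZ. Without libraries 4, 15, 16 and 20 these fold changes of Mmp9 and Acp5 were -0.39 and -0.61.

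**Figure D3:**
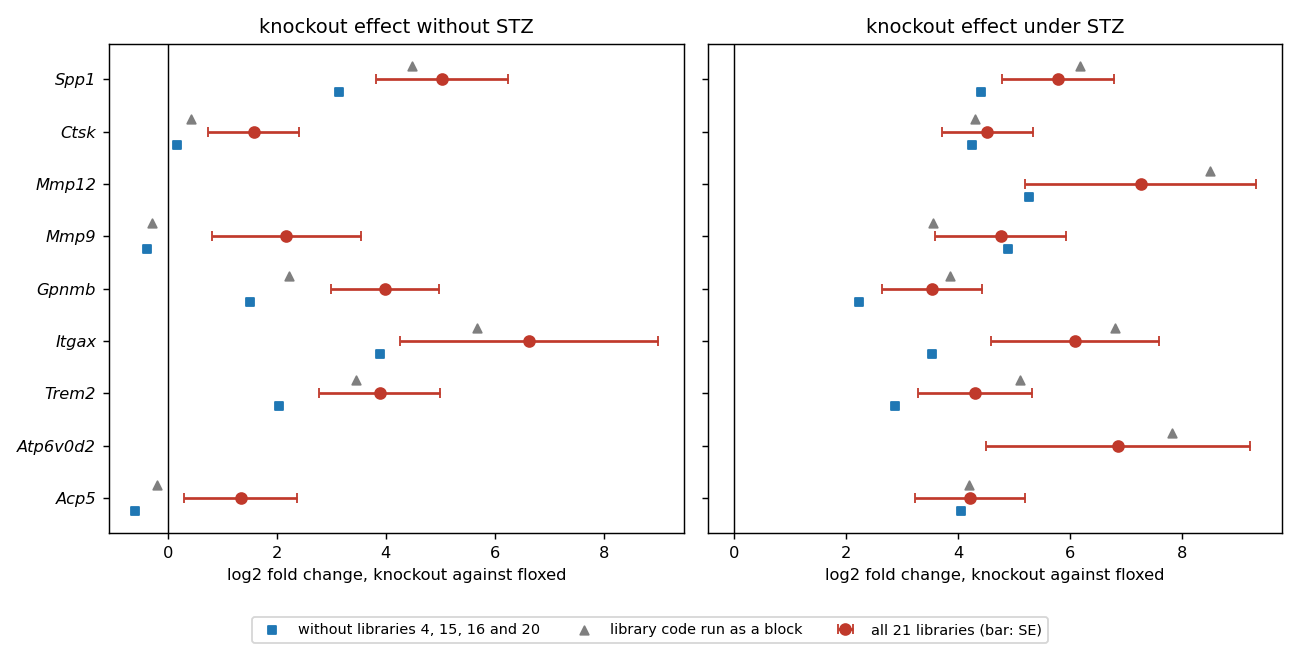
Log2 fold change of knockout over floxed muscle without STZ (left) and under STZ (right) for each gene, with all 21 libraries (circle, bar: SE), without libraries 4, 15, 16 and 20 (square) and with the library code run as a block (triangle). Mmp12 and Atp6v0d2 are left out on the left, where the floxed group held 2 and 0 counts, and Mmp9 and Acp5 change side there while all values on the right stay above 0.

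STZ itself was not followed by a called change in any of the 9 genes. In floxed muscle edgeR's test called 0 of 9, against 1.35% of all genes in either direction, with 0 at an unadjusted p under 0.05 and 0 by DESeq2. Spp1 was 1.32 ± 1.31 (SE) higher on the log2 scale under STZ, and Gpnmb 0.77 ± 1.06 (SE) higher. With the library code run as a block these values were 0.38 and -0.45, and those of Mmp12 and Mmp9 also turned below 0, to -0.36 and -0.82. In the knockouts edgeR called 0 of 9, against 0.142% of all genes, with 3 at an unadjusted p under 0.05 (11.3% of all genes) and 0 by DESeq2. The largest differences between STZ TKO and TKO were 3.01 ± 1.03 (SE) for Mmp9, 2.23 ± 0.84 (SE) for Acp5 and 2.07 ± 0.88 (SE) for Spp1. Without library 18 the value for Mmp9 was 1.54, and without library 16 it was 5.20, so that it depended on which uneven library was kept. For Mmp12, Gpnmb and Trem2 the STZ effect in knockouts changed sign without library 15, to -0.13, -0.32 and -0.23. The test of the difference between both STZ effects called 0 of 9, against 0.0079% of all genes, with 1 at an unadjusted p under 0.05 (3.89% of all genes) and 0 by DESeq2. That comparison shares its libraries with the others.

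Levels were also divided by the length of merged exons, for a rough comparison between genes. That length joins the exons of all annotated transcripts, from 1512 bases for Ctsk to 7237 for Mmp12. It can exceed the transcripts present, by an amount that differs between genes and was not measured. Ctsk was highest in floxed muscle at 11.0 ± 3.85 CPM per kb (SD, n = 4), a gap to Acp5 at 1.91 ± 0.74 larger than either SD. Acp5 and Spp1 (1.54 ± 1.31 CPM per kb) did not differ beyond their spread, nor did Spp1 and Gpnmb (0.94 ± 0.12). Mmp9 came next at 0.75 ± 0.15 CPM per kb, and Trem2, Itgax, Mmp12 and Atp6v0d2 were all below 0.1. In STZ TKO muscle Spp1 led at 196 ± 206 CPM per kb (SD, n = 6), before Ctsk at 85.8 ± 95.6, Mmp9 at 27.1 ± 45.1 and Acp5 at 22.6 ± 28.7. No pair of neighbours in that order differed beyond its spread. In TKO muscle Spp1 also led, at 46.3 ± 56.4 CPM per kb, and Trem2 was last in both knockout groups, at 1.22 ± 1.34 and 1.54 ± 1.51.

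The genes varied together between libraries of the same group. After subtraction of the group means from log2 CPM, Pearson's r over the 21 libraries was 0.944 between Mmp12 and Gpnmb, 0.934 between Gpnmb and Atp6v0d2 and 0.930 between Itgax and Atp6v0d2. Ctsk was closest to Acp5 (0.898) and to Mmp9 (0.869), and the lowest value of the 36 pairs was 0.496, between Mmp9 and Trem2. These are descriptions of libraries that share depth, makeup and the few high knockouts, and they carry no test. A pair of patterns was visible in the heat map. Ctsk, Mmp9 and Acp5 had their highest value in library 18, whereas Spp1, Itgax, Trem2 and Atp6v0d2 peaked in library 15 and Mmp12 and Gpnmb in library 16.

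Start-site windows of the genes were searched for letters bound by factors of macrophages and osteoclasts, as a description of genes that varied together. RefSeq windows of 300 bases on GRCm38.p6, from 250 before to 50 after a start, were matched for 7 of the 9 genes, in 11 windows. The motifs were the AP-1 site TGANTCA, the MITF and TFE E-box TCANGTG, the PU.1 site GAGGAAGT, the FoxO site GTAAACA and the NF-kB site by its name, on both strands, and no matches in these windows overlapped. The 5 windows below are those of the 5 genes whose first start holds an AP-1 or PU.1 match, with the match in capitals. They lie at chr5:104434861-104435160 (Spp1), chr9:7344147-7344446 (Mmp12), chr6:49036268-49036567 (Gpnmb), chr7:128129300-128129599 (Itgax) and chr17:48346151-48346450 (Trem2), all on the plus strand.
Spp1: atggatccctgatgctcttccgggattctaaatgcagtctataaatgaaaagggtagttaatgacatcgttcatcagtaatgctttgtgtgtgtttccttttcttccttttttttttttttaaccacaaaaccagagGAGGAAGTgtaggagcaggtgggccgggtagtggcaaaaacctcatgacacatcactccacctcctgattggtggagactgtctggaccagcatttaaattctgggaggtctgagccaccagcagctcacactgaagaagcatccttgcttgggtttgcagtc
Mmp12: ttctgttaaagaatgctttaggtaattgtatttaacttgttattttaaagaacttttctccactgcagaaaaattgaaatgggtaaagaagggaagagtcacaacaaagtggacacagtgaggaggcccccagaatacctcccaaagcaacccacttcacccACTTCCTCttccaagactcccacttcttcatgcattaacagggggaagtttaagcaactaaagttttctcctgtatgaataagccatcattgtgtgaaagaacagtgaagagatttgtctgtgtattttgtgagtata
Gpnmb: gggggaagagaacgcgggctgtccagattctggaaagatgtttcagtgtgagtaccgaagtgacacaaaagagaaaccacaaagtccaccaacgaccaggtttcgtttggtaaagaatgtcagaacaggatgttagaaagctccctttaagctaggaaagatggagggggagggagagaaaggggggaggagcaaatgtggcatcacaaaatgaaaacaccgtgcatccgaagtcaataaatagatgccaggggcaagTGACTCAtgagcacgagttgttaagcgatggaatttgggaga
Itgax: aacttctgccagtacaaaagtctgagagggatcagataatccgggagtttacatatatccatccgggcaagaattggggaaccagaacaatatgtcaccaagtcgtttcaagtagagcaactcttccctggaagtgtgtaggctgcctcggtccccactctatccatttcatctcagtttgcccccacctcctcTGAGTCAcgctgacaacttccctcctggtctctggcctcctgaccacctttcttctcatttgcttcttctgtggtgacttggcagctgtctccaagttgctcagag
Trem2: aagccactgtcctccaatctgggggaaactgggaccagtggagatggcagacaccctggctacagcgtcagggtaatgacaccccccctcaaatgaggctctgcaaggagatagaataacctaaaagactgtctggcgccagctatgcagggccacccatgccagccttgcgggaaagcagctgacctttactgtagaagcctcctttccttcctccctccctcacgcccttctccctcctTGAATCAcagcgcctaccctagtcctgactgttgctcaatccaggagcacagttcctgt
In these windows the PU.1 letters began 113 bases before the start of Spp1 and, on the opposite strand, 88 bases before that of Mmp12. The AP-1 letters began 56 bases before the start of Itgax (TGAGTCA) and 9 before that of Trem2 (TGAATCA), and at position 9 after the start of Gpnmb (TGACTCA). The usual AP-1 site has C or G in the middle, so the Trem2 letters match only the wider pattern searched. A second Mmp12 start held AP-1 and E-box letters, 1 start of Acp5 held the E-box, and the Ctsk window held none of the 5 motifs. AP-1 letters stood in 4 of the 11 windows, against 7.81% of 32851 windows of the same length. The PU.1 letters stood in 2 of 11, against 3.2% of all, and the E-box in 2 of 11, against 14.3%. The FoxO letters stood in 0 of 11 (3.65% of all) and the NF-kB letters in 0 of 11 (0.411% of all). A match describes letters only, and no binding was measured.

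Markers shared by most macrophages were higher in the knockouts too. The summed level of 22 such markers ran from 212 to 282 CPM in floxed, 360 to 2221 CPM in TKO, 244 to 374 CPM in STZ floxed and 342 to 2682 CPM in STZ TKO muscle. By edgeR's test 8 of the 22 rose and 0 fell in STZ TKO against STZ floxed muscle, with a median log2 fold change of 1.76 beside 0.03 for all genes. The count was 3 without libraries 4, 15, 16 and 20, and fell to 4 without library 4, 7, 14 or 15 and to 3 without library 21. Lyz2, a lysozyme, rose by 2.59 ± 0.51 on the log2 scale (SE; edgeR adjusted p = 0.00797), from 108 ± 29.3 CPM (SD, n = 5) to 651 ± 558 CPM (n = 6). Ctss, the cathepsin of antigen-presenting cells, rose by 3.29 ± 0.68 (edgeR adjusted p = 0.0106), and C1qc, a complement chain, by 1.65 ± 0.39 (edgeR adjusted p = 0.019; not past the threshold without library 17 or 21). Mpeg1, whose perforin-like product kills engulfed bacteria, rose under STZ by 3.35 ± 0.70 (edgeR adjusted p = 0.0128) and without STZ by 4.08 ± 0.79 (edgeR adjusted p = 0.0394). Without STZ 2 of 22 rose, Mpeg1 and Fcer1g, the latter by 2.35 ± 0.48 (edgeR adjusted p = 0.031). That count was 5 without library 13, 4 without library 12 and 0 without library 1, 5, 9, 19 or 20. STZ changed 0 of 22 in floxed muscle and 0 of 22 in knockouts by edgeR's test, with 0 and 0 at an unadjusted p under 0.05 and 0 and 0 by DESeq2. Lyz2 and Ctss stayed past the threshold in each of 27 alternative fits, whereas the call of Mpeg1 without STZ was lost without any 1 of floxed libraries 1, 5, 9 and 19 or TKO libraries 16 and 20, with the library code run as a block and with no filter on low counts. That of Fcer1g was lost without any 1 of libraries 1, 5, 6, 9, 19 and 20 and with no filter.

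The genes and these markers varied together within groups, as a description that carries no test. With group means subtracted from log2 CPM, Pearson's r with the summed markers over the 21 libraries was 0.905 for Trem2 (Spearman's rho 0.834), 0.837 for Spp1 (rho 0.743) and 0.772 for Itgax (rho 0.748). Atp6v0d2 (0.727), Mmp12 (0.689), Ctsk (0.685), Gpnmb (0.681) and Acp5 (0.631) followed, with rho from 0.603 to 0.708, and Mmp9 was last at 0.414 (rho 0.457). Mmp12, Itgax, Trem2 and Atp6v0d2 were nearly absent from floxed muscle, so that their values come from the knockouts. For several genes the relation rested on the 4 libraries with the most marker signal. Without libraries 4, 15, 16 and 20, r was 0.726 for Trem2, 0.656 for Spp1 and 0.571 for Ctsk, but 0.32 for Gpnmb, 0.312 for Atp6v0d2, 0.287 for Mmp12, 0.265 for Itgax and 0.102 for Mmp9. Without libraries 11 and 12, the farthest from the median, r was 0.885 for Trem2, 0.754 for Spp1, 0.54 for Ctsk, 0.508 for Acp5 and 0.293 for Mmp9. With the runs of library codes subtracted as well, it was 0.898 for Trem2, 0.863 for Spp1, 0.532 for Acp5 and 0.313 for Mmp9.

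**Figure D4:**
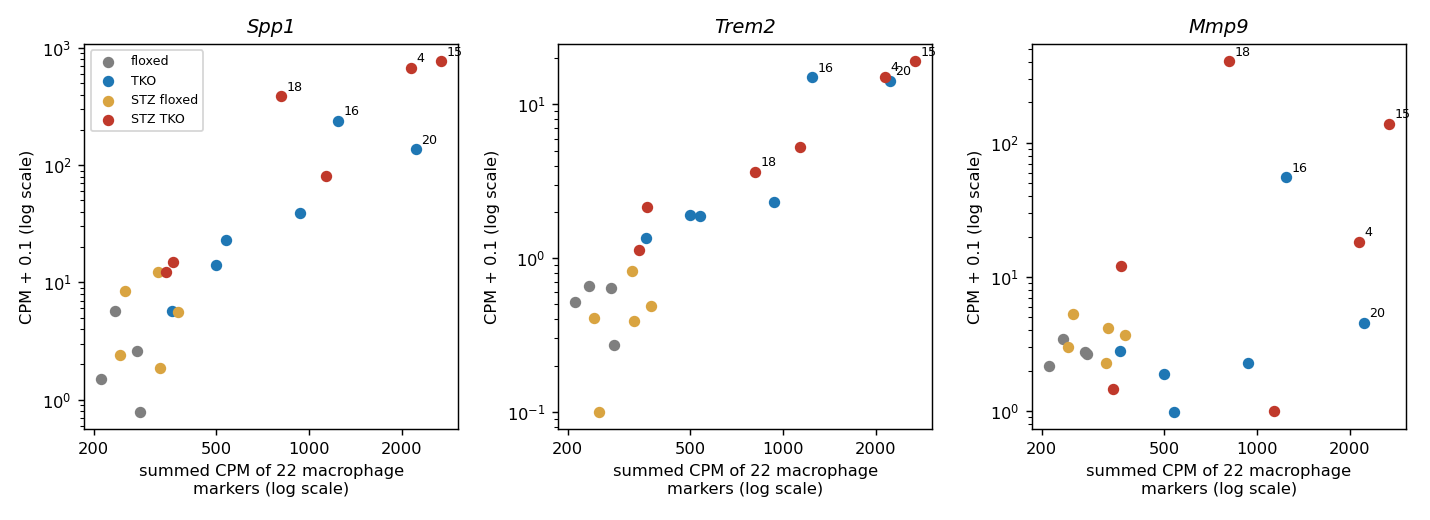
CPM + 0.1 of Spp1, Trem2 and Mmp9 (log axes) against the summed CPM of 22 macrophage markers, 1 point per library, coloured by group, with 5 knockout libraries numbered. Trem2 follows the markers most closely (r = 0.905 with group means subtracted), and library 18 lies far above the others for Mmp9, at 404 CPM.

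Levels were also set against the same markers, and the differences between groups in these ratios were not tested. Per 100 CPM of summed markers, Spp1 was 1.04 ± 0.92 (SD, n = 4) in floxed, 6.37 ± 6.47 (n = 6) in TKO, 2.00 ± 1.45 (n = 5) in STZ floxed and 20.4 ± 18.2 (n = 6) in STZ TKO muscle. The TKO mean held library 16 at 19.2 and was 3.80 ± 1.73 (n = 5) without it. Mmp12 was 0.05 ± 0.06, 2.28 ± 4.19, 0.07 ± 0.06 and 2.49 ± 1.52 in the same order, with the lowest STZ TKO library at 0.798 and the highest STZ floxed library at 0.168. In TKO muscle library 16 stood at 10.8, and the mean of Mmp12 without it was 0.57 ± 0.29 (n = 5). Trem2 was 0.17 ± 0.08, 0.52 ± 0.36, 0.11 ± 0.08 and 0.53 ± 0.16. Mmp9 was 1.07 ± 0.23 in floxed and 1.03 ± 1.69 in TKO muscle, and Acp5 1.62 ± 0.80 and 0.84 ± 0.92. Without library 16 these TKO values were 0.34 ± 0.24 and 0.48 ± 0.18 (n = 5). Gpnmb had medians of 2.51 and 2.83. For Ctsk the floxed level was 6.81 ± 3.04 and the TKO level 4.92 ± 4.82, or 3.01 ± 1.34 without library 16. Against 6 core markers the order was the other way for Ctsk, 24.1 ± 9.41 and 26.2 ± 31.8, and for Mmp9, 3.82 ± 0.795 and 5.88 ± 10.8. Without library 16 the TKO values against 6 markers were 13.3 ± 4.72 for Ctsk and 1.48 ± 0.89 for Mmp9. Against the 22 markers, the STZ TKO level of Ctsk was 11.7 ± 16.3, with library 18 at 44.6. Without library 18 it was 5.08 ± 2.75 (n = 5). The STZ floxed level of Ctsk was 1.80 ± 0.28 (n = 5), with its highest library at 2.08 and the lowest STZ TKO library at 2.19. Mmp9 was 1.22 ± 0.51 in STZ floxed and 9.91 ± 19.6 in STZ TKO muscle, or 1.96 ± 2.19 without library 18. Acp5 was 0.74 ± 0.62 and 4.33 ± 6.92, or 1.53 ± 1.13 without library 18. In that library Mmp9 stood at 49.7, Spp1 at 47.5 and Acp5 at 18.3 per 100 CPM of markers, the highest of the STZ TKO group for each.

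Genes of the lipid-associated macrophage set, the set that Spp1, Gpnmb and Trem2 are usually listed with, moved in part. Of 30 measured members other than the 9 genes, 4 rose and 0 fell under STZ by edgeR's test, with a median log2 fold change of 0.61. Lgals3, the gene of galectin-3, rose by 3.19 ± 0.69 (edgeR adjusted p = 0.0107), and Clec7a, the receptor dectin-1, by 3.48 ± 0.98 (edgeR adjusted p = 0.0242). Lgmn, a lysosomal asparagine-cutting protease, rose by 1.51 ± 0.37 (edgeR adjusted p = 0.0216), and Capg, an actin-capping protein, by 1.28 ± 0.35 (edgeR adjusted p = 0.0369). Lgals3 was past the threshold in each of 27 alternative fits, and 1 of the 30 was called without libraries 4, 15, 16 and 20. Clec7a was lost without any 1 of libraries 4, 7, 14, 15 and 21, Lgmn without 4, 14, 15 or 21, and Capg without 3, 4, 7, 8, 14, 15, 17 or 21. The most abundant members, Psap and Ctsd, lysosomal proteins of most cells including muscle, had log2 differences of 0.15 ± 0.24 and 0.12 ± 0.23. Without STZ 0 of 30 passed (17 at an unadjusted p under 0.05; 4 by DESeq2), or 2 without library 13 and 1 without library 4 or 12. In floxed muscle STZ changed 0 of 30 by edgeR (1 at an unadjusted p under 0.05; 0 by DESeq2). In knockouts 1 of 30 rose with STZ, Cd36, a fatty acid transporter that muscle fibres and endothelium also express, by 1.42 ± 0.23 (edgeR adjusted p = 0.00676).

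The receptor side of Trem2 showed a smaller part. Of 7 measured genes of TREM2 and DAP12 signalling, 1 rose under STZ, Tyrobp, the gene of DAP12, by 2.32 ± 0.60 (edgeR adjusted p = 0.026), from 1.52 ± 0.74 CPM (n = 5) to 7.74 ± 5.58 CPM (n = 6). It was no longer past the threshold without library 4, 7, 14, 15, 17 or 21. The kinase Syk had a log2 difference of 1.27 ± 0.48 and the phosphatase Inpp5d 0.99 ± 0.52, neither past the threshold. The list's median was 1.27. Without STZ 0 of 7 passed (6 at an unadjusted p under 0.05; 2 by DESeq2).

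Among 10 measured integrin and CD44 receptors of osteopontin, 2 rose under STZ, with a list median of 0.49. Itgav, the alpha-v chain, rose by 1.00 ± 0.23 (edgeR adjusted p = 0.0154), from 62.1 ± 4.31 CPM (n = 5) to 124 ± 33.0 CPM (n = 6). Itgb6, a partner chain, rose by 1.14 ± 0.31 (edgeR adjusted p = 0.0369), and had fallen with STZ in floxed muscle by 1.45 ± 0.34 (edgeR adjusted p = 0.0353). Its mean was 66.2 ± 11.7 CPM in floxed, 56.7 ± 21.3 in TKO, 24.2 ± 9.64 in STZ floxed and 53.5 ± 20.9 CPM in STZ TKO muscle. The widely expressed Itgb1, at 366 ± 61.3 CPM in floxed muscle, and Itgb5 had log2 differences of 0.26 ± 0.16 and -0.14 ± 0.21 under STZ. The call of Itgb6 in floxed muscle was lost without any 1 of libraries 1, 5, 7, 9, 17, 19 and 21, and its call under STZ without 7, 8, 12, 15, 17 or 21. That of Itgav held whichever 1 library was left out.

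Of 22 other measured metalloproteinases, ADAM proteases and their inhibitors, 4 rose and 0 fell under STZ, with a list median of 0.36. Mmp2, the gelatinase A of fibroblasts, rose by 1.23 ± 0.27 (edgeR adjusted p = 0.0102), and Mmp19 by 2.51 ± 0.54 (edgeR adjusted p = 0.0111). Adam8, a protease of myeloid cells, rose by 2.82 ± 0.66 (edgeR adjusted p = 0.0177), and Mmp3, stromelysin, by 3.19 ± 0.88 (edgeR adjusted p = 0.0231), from 0.36 ± 0.23 CPM (n = 5) to 3.69 ± 3.56 CPM (n = 6). None of these 4 was past the threshold in the fit without libraries 4, 15, 16 and 20, which called 0 of the 22. With 1 library left out, Mmp3 was lost without library 3, 7 or 21 and Adam8 without library 21. The inhibitors Timp2 and Timp3 had log2 differences of 0.39 ± 0.25 and -0.51 ± 0.25, neither past the threshold. Without STZ 0 of 22 passed (10 at an unadjusted p under 0.05; 4 by DESeq2), or 3 without library 13 and 1 without library 17.

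Ctsk and Acp5 are best known from osteoclasts, so other genes of that cell were counted too. Of 18 measured genes of the osteoclast programme other than the 9, 0 passed edgeR's test under STZ (7 at an unadjusted p under 0.05; 4 by DESeq2) and 0 without STZ (4 and 1), with medians of 0.42 and 0.14. Under STZ the count was 2 without library 12 and 1 without library 8, 11 or 17. The master regulator Nfatc1 had a log2 difference of -0.33 ± 0.21 under STZ, and Ostm1, a chloride channel partner, 0.51 ± 0.20. Both, named as the most abundant of the list, were already at 59.45 ± 7.29 and 58.98 ± 10.6 CPM in floxed muscle. Which cells held them was not measured, so their values do not single out osteoclasts. Of genes tied to osteoclasts or to their formation, though not all particular to them, Ocstamp was at most 0.971 CPM and at 0 in 10 libraries. Dcstamp was at most 4.03 CPM and at 0 in 14, and Oscar at most 1.29 CPM and at 0 in 14. Tnfsf11, the ligand RANKL, reached 1.29 CPM and was at 0 in 15 libraries, whereas Calcr, the calcitonin receptor, reached 3.07 CPM and was at 0 in 1. Library 18, the highest for Ctsk, Mmp9 and Acp5, was also the highest for Dcstamp, Calcr, Oscar and Tnfsf11. Tnfrsf11a, the receptor RANK, was highest in library 15 at 10.4 CPM and at 0 in 1 library. Bone and cartilage markers were mixed. Bglap was at 0 in 20 of 21 libraries and Ibsp at most 0.624 CPM. The cartilage collagen Col2a1 was highest in floxed library 1 at 6.25 CPM. Alpl ran from 2.26 to 23.8 CPM, highest in TKO library 13. Runx2 ran from 0.323 to 8.83 CPM and Dmp1 reached 4.63 CPM, both highest in TKO library 20. In STZ TKO library 15 Runx2 stood at 7.28 CPM. These 16 osteoclast-related genes and bone markers were chosen after their values had been seen and were not tested as a list.

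The vacuolar proton pump acidifies lysosomes and has many subunits besides Atp6v0d2. Of 19 measured, 0 passed under STZ (8 at an unadjusted p under 0.05; 2 by DESeq2) and 0 without STZ (1 and 0), with medians of 0.27 and 0.10 on the log2 scale. Under STZ the count was 4 without library 17, 2 without library 8 and 1 without library 11 or 12. The abundant Atp6v0a1 had a log2 difference of 0.47 ± 0.20 under STZ and Atp6v1g1 one of 0.27 ± 0.20. The summed level of the 19 ran from 919 to 947 CPM in floxed, 910 to 1078 in TKO, 809 to 1126 in STZ floxed and 937 to 1311 CPM in STZ TKO muscle, highest in library 18.

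Of 9 measured monocyte chemokines and receptors, 0 passed under STZ (3 at an unadjusted p under 0.05; 1 by DESeq2) and 0 without STZ (8 and 6), with medians of 1.08 and 3.03. The count under STZ was 2 without library 17 and 1 without library 12, and without STZ it was 1 without library 13 or 17. Ccl9 had a log2 difference of 1.53 ± 0.50 under STZ and Ccl6 one of 1.20 ± 0.47. The high median without STZ came with summed levels of 35.5 to 215 CPM in TKO libraries against 13.8 to 33.9 CPM in floxed ones.

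Markers of other cell types moved with the 9 genes in part. Of 12 fibroblast markers, 2 rose under STZ by edgeR's test, the collagen Col3a1 by 2.73 ± 0.65 (edgeR adjusted p = 0.0267) and fibronectin, Fn1, by 2.15 ± 0.55 (edgeR adjusted p = 0.035). Their summed level ran from 714 to 1570 CPM in STZ floxed and 904 to 6348 CPM in STZ TKO muscle. In floxed muscle 2 fibroblast markers were lower with STZ, beside the lower Ctsk of the same libraries. Col1a2 fell by 3.73 ± 0.71 (edgeR adjusted p = 0.0183) and Col1a1 fell by 4.43 ± 0.87 (edgeR adjusted p = 0.0246). Col3a1 and Fn1 were not called without libraries 4, 15, 16 and 20, nor without any 1 of libraries 4, 7, 15, 17 and 21, and Fn1 not without 14 either. Col1a2 was not called without library 1, 7 or 17, nor Col1a1 without 1, 7, 14, 17, 19 or 21. Of 7 dendritic cell markers 0 passed under STZ (0 at an unadjusted p under 0.05 and 0 by DESeq2). The abundant H2-Aa had a log2 difference of 0.72 ± 0.52 under STZ and 1.67 ± 0.55 without STZ. Of 12 neutrophil markers 2 were measured and 0 passed (1 and 1), or 1 without library 17. Lcn2, which other stressed cells also make, averaged 33.7 ± 45.3 CPM (n = 6) in STZ TKO muscle. The list's sum was highest in library 18 at 117 CPM, of which Lcn2 alone held 113 CPM. Lymphocyte markers were at or under 6.24 CPM in sum in the knockouts, with 1 of 13 measured and 0 passing (0 and 0). Their highest sum was 35.8 CPM, in STZ floxed library 14. The part of these cells in the values of the 9 genes was not tested.

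Regenerating and denervated fibres, in which macrophages gather, had 0 of 12 and 0 of 13 markers past the threshold under STZ (7 and 5 at an unadjusted p under 0.05; 3 and 1 by DESeq2), with medians of 1.11 and 0.67. Without STZ these were 0 and 0 (9 and 8; 6 and 5), with medians of 1.64 and 1.67. These counts depended on single libraries: under STZ 5 regeneration and 4 denervation markers passed without library 20, 1 regeneration marker without library 8, 13 or 17, 2 denervation markers without library 13 and 1 without library 11 or 16. Without STZ 1 regeneration marker passed without library 2, 4 or 17 and 2 denervation markers without library 13. Chrna1, the acetylcholine receptor subunit, had a log2 difference of 1.13 ± 0.47 under STZ and Vim one of 1.10 ± 0.38. Myh3, the embryonic myosin of the regeneration list, ran from 4.46 to 6.67 CPM in floxed and 7.14 to 45.1 CPM in STZ floxed muscle. In TKO libraries Myh3 ran from 10.45 to 1058 CPM, and in STZ TKO libraries from 15.1 to 336 CPM. Libraries 20, 4 and 15 were highest, at 1058, 336 and 111 CPM, whereas library 16 held 26.5 CPM. How this relates to the 9 genes was not tested. Muscle fibre markers, which check the labelled tissue, summed to at least 96610 CPM in every library, and 0 of 14 passed under STZ (2 at an unadjusted p under 0.05; 0 by DESeq2). Of 8 endothelial and 8 adipocyte markers 0 and 0 passed (2 and 3 at an unadjusted p under 0.05; 1 and 1 by DESeq2), with medians of -0.38 and -1.24. Without library 17, 1 endothelial and 2 adipocyte markers passed, and without library 8, 3 adipocyte markers.

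Likeness to Spp1 over the 21 libraries was ranked by Pearson's r of log2 CPM among tested genes. The 9 genes and predicted or unnamed gene models were left out of the ranking. The 8 most similar genes were Mmp19 (0.947), Mpeg1 (0.947), Cd84 (0.937), Apobec1 (0.937), Tlr13 (0.936), Clec4d (0.933), Adam8 (0.931) and Lyz2 (0.931). The median over the genes ranked was -0.02, and the next gene, Il1rn, stood at 0.921. Without libraries 4, 15, 16 and 20 these 8 kept r between 0.859 and 0.918. For the mean of the 9 standardised genes the nearest were Slc37a2 (0.962), Rgs1 (0.955), Mmp19 (0.944) and Cd84 (0.934), followed by Galnt6, Dpep2, Mfsd12 and Apobec1 at 0.922 to 0.932. Mmp19, Cd84 and Apobec1 were in both sets of 8. Likeness of this kind is a description over libraries that share the same high knockouts.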

How the data were processed

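RNA sequencing libraries of mouse muscle were analysed from the read counts per Ensembl gene that the authors deposited, which hold 46071 genes in 21 libraries and are not normalized. The submitters' processing notes name STAR, featureCounts and GRCm38.p4. Not given in the sources used here: versions, annotation, strand setting, and the rule for multi-mapped reads, so reads of overlapping genes may be misassigned. Spp1 shares its strand and position with the predicted gene Gm42793, and Mmp12 overlaps Mmp1b on the other strand. Symbols, exons and coordinates came from GENCODE release M21 on GRCm38, which gave a symbol to 45143 identifiers, and 0.0533% of counts had none.

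Genes were tested in R 4.3.3 with edgeR 4.0.16 (filterByExpr, which kept 12658 genes; TMM; robust quasi-likelihood fit of the 4 group means over all 21 libraries; Benjamini-Hochberg adjustment within each of 5 contrasts, two-sided, threshold 0.05), after a check on simulated data. Standard errors come from the fitted information of each group mean. Alternatives were DESeq2 1.42.0, RLE scaling, no filter, the run of library codes as a block, and libraries left out. Correlations used log2 CPM with a prior count of 2 and carry no test; their values without the code runs and without libraries 4, 15, 16 and 20, and ratios to macrophage markers without library 16 or 18, were added after seeing the data. Intervals of pooled ratios are exact binomial at 95% and cover counting error only.

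The 9 genes and the 17 gene lists were chosen with earlier results of these data known. Named beside the 9 were, per list and contrast, up to 4 genes past the threshold by smallest p. The 2 most abundant genes of a list and the 8 most similar genes were named too. Osteoclast-related genes, bone genes and Myh3 were added after seeing their values.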

Additional observations from a re-analysis of the deposited data

Results flagged for a closer look

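Of 35 groups of 4 to 6 libraries examined for the 9 genes, 9 had a highest or lowest library far from the rest by Dixon's criterion. With normal values and independent groups, about 1 in 20 would be flagged by chance. These groups share libraries and their genes varied together, so the 9 are not set against that share. In TKO muscle library 16 stood apart for 7 genes. Ctsk reached 180 CPM there against 41.8 in the next library, Mmp12 135 against 9.40, Mmp9 55.4 against 4.48 and Gpnmb 454 against 52.7. Itgax reached 104 CPM against 23.0, Atp6v0d2 34.2 against 6.37 and Acp5 33.4 against 12.2. Spp1 and Trem2 were also highest in library 16 of that group but did not stand apart, since library 20 was near. In STZ TKO muscle Mmp9 in library 18 reached 404 CPM against 138 in library 15. In STZ floxed muscle Atp6v0d2 was at 0 in library 7 and at 0.13 CPM in the next, a difference of 1 count.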

How the results depend on the processing

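No paired analysis was possible because the title numbers of the libraries are unique and no number is shared between groups. The 6 runs of consecutive library codes, which the labels do not name as batches or pairs, were fitted as a block instead. Of the 9 genes, 9 were called under STZ with DESeq2, with RLE scaling and with the run of library codes as a block. With no filter on low counts 5 were called, and without libraries 17 and 18, which earlier results of these data set apart, also 5; Mmp9, Atp6v0d2, Gpnmb and Acp5 were lost in both. With 1 library left out the number ranged from 6 to 9 under STZ and from 0 to 2 without STZ, and it was 0 in the other 3 contrasts. Without STZ 6 of the 9 were called by DESeq2 and 2 without libraries 4, 15, 16 and 20. The cause was not tested.

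Over all genes, 65 were called without STZ, but 347 by DESeq2, 40 without libraries 4, 15, 16 and 20, 125 without libraries 17 and 18, and 32 to 105 with 1 library left out. Under STZ 619 were called, but 992 by DESeq2, 1068 with the run as a block, and 380 to 780 with 1 left out. For STZ in floxed muscle 171 were called, but 428 by DESeq2 and 31 to 333 with 1 left out. For STZ in knockouts 18 were called, but 110 by DESeq2, 29 with no filter, 98 with the block, 28 without libraries 17 and 18, and 7 to 61 with 1 left out. For the difference between both STZ effects 1 was called, but 3 by DESeq2, 2 with no filter, 0 with the block, 0 without libraries 4, 15, 16 and 20, and 0 to 2 with 1 left out. Depth limits Mmp12, Itgax, Trem2 and Atp6v0d2 in floxed muscle, where 2, 5, 9 and 0 counts stand behind 4 libraries.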
